A study of Mus musculus with 8 samples.

Results

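The mouse aquaporins expressed in liver were Aqp1, Aqp3, Aqp4, Aqp7, Aqp8, Aqp9 and Aqp11, which are 7 of the 48440 genes in the count table and 7 of the 12 aquaporin family genes in it. They were matched to their Ensembl identifiers by gene symbol. The 7 were selected on measured values, with the difference between knockout and control counts of these same livers known, so their fold changes are given as a description, with no test and no p-value. RNA of the whole liver was sequenced from 8 neonatal CD1 mice. The 4 knockout pups (animals 275 to 278) carried a germline deletion of Myosin 5b, which therefore reaches every cell type, and the 4 control pups (animals 279 to 282) were littermates labelled heterozygous or wildtype together, without saying which pup was which. Pups of both groups were 3 to 8 days old, no treatment is labelled, and age, sex and litter are not given for each pup.

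Aquaporins are membrane channels that assemble as tetramers, with a separate pore through each subunit. Orthodox members pass mainly water, and aquaglyceroporins also pass glycerol and other small uncharged solutes. Hepatocytes secrete bile into canaliculi that are bounded by their apical membrane, water follows the secreted solutes, and the sinusoidal membrane on the other side takes glycerol up from the blood. In rat hepatocytes Aqp8 lies in vesicles that are inserted into the canalicular membrane when cyclic AMP rises, and also in mitochondria. Myosin Vb, the product of Myo5b, is an actin motor that works with Rab11 on recycling endosomes bound for the apical membrane. The comparison asks how these channels were expressed in livers that lack that motor.

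A pair of short helices, each starting at an asparagine that is usually followed by proline and alanine (NPA), meets in the aquaporin pore and keeps protons out. The coding sequences of these asparagine boxes are shown because they mark the genes as 1 family and show how its less typical members differ. They were read from the longest open reading frame of protein-coding transcripts in GENCODE M21 (GRCm38), with the 3 codons of the box in capitals and 9 coding bases on each side. Codons are counted from 1 at the start codon.
Aqp8, chromosome 7, first box at codon 92: ggacacttcAACCCTGCTgtgtcgctg
Aqp8, second box at codon 210: gcctgcatgAACCCTGCTcgtgccttt
Aqp1, chromosome 6, first box at codon 76: gctcacctcAACCCTGCGgtcacactg
Aqp1, second box at codon 192: tgcggtatcAACCCTGCCcggtcattt
Aqp3, chromosome 4, first box at codon 83: gcccacttgAACCCCGCTgtgaccttc
Aqp3, second box at codon 215: tatgccgtcAACCCTGCCcgtgacttt
Aqp7, chromosome 4, first box at codon 79: gcccacatgAATGCCGCAgtgactttc
Aqp7, second box at codon 211: tatgcaatcAACCCATCCcgtgacctg
Aqp9, chromosome 9, first box at codon 110: ggccacatcAACCCAGCGgtgtctttt
Aqp9, second box at codon 242: tgtgccatgAACCCTGCTcgagacctc
Aqp11, chromosome 7, first box at codon 99: acagctagcAACCCGTGCggcgtgatg
Aqp11, second box at codon 216: gcattgtttAACCCAGCGctggcactt
As background, Aqp8, Aqp1, Aqp3 and Aqp9 carry the standard NPA motif at both boxes, Aqp7 carries the variants NAA and NPS, and Aqp11 carries the variant NPC at its first box. Aqp4 is named without its sequence.

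The 250 bases upstream of the RefSeq start are shown for Aqp8 and Aqp3, the members with the widest differences in opposite directions (GRCm38.p6, 5′ to 3′ on the strand of the gene, motif matches in capitals).
Aqp8, chr7:123462044-123462293, plus strand: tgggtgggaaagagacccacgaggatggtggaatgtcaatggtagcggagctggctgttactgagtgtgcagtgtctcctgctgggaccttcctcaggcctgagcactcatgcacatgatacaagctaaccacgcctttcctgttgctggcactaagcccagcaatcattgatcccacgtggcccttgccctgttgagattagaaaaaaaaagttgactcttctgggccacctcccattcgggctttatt
Aqp3, chr4:41098184-41098433, minus strand: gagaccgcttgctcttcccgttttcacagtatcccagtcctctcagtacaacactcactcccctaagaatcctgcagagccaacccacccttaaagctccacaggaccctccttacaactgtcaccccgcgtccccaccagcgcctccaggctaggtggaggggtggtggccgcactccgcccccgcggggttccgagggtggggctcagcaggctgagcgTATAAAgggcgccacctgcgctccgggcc
The motifs, none of which contains another, were searched on both strands. They were the TATA box TATAAA, the nuclear receptor core AGGTCA, the forkhead motif GTAAACA, the Hnf1 core GTTAAT and the cyclic AMP response element TGACGTCA. Of 32851 windows of the same length, 12.4% held TATAAA, 14% AGGTCA, 3.17% GTAAACA, 6.43% GTTAAT and 1.55% TGACGTCA. The Aqp3 window held TATAAA on the coding strand from -29 to -24 relative to the start. None of the 5 strings is in the Aqp8 window.

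The libraries held 14228268 to 18398039 counts, and 18274 genes passed the filter on low counts, all 7 aquaporins among them. Myo5b averaged 49.3 ± 7.06 CPM in knockout livers and 133 ± 33.1 CPM in controls (CPM, counts scaled to a common TMM library size; SD, n = 4 each). The difference was -1.43 on the log2 scale (SE 0.18, adjusted p = 3.14e-04), where adjusted p are from edgeR's quasi-likelihood test with Benjamini-Hochberg adjustment. The labels do not say which exons the allele lacks, and transcripts from what is left of the gene are counted too. At an adjusted p under 0.05, knockout livers had 1694 genes (9.27%) higher and 2088 (11.4%) lower, and with library size as the only scaling these were 2300 and 1696. The hepatocyte markers fit the labelled tissue, with a summed level of 84030 to 96930 CPM in knockout livers and 106400 to 134500 CPM in controls. Of 9 tested, 1 was higher and 2 lower, with a median log2 fold change of 0.02. Alb, the largest part of the sum, averaged 32558 CPM in knockout livers and 68617 CPM in controls. All 12 erythroid markers were lower in knockout livers, with a summed level of 1574 to 3182 CPM against 6220 to 8317 CPM in controls and a median log2 fold change of -1.87. Kupffer cell and macrophage markers were higher for 9 of 10, with summed levels of 1558 to 1805 CPM against 866 to 993 CPM. Knockout 276 stood apart with 199 CPM of skeletal muscle markers and 62.9 CPM of stratified epithelium markers, against at most 56.2 and 2.74 CPM in any other liver. Y-linked genes gave 4527 counts in knockout 277, 3643 in control 279 and 3919 in control 281, and at most 8 in any other liver. In whole liver, fewer cells of a type and less RNA per cell cannot be told apart.

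Knockout and control livers differed mainly in Aqp8, which was low or at 0 counts in knockout livers, and in Aqp3, which was several-fold higher in them. The other 5 members differed by less than 2-fold. Of the 7, 5 had a negative log2 fold change and 2 a positive one. All knockout livers lay below all controls for 2 members and above all controls for 1, and the groups overlapped for 4. Over all genes tested the same complete separation held for 12.8% below and 10.8% above. Since the members were chosen with this contrast known, nothing is read from their counts against those shares.

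**Figure D1:**
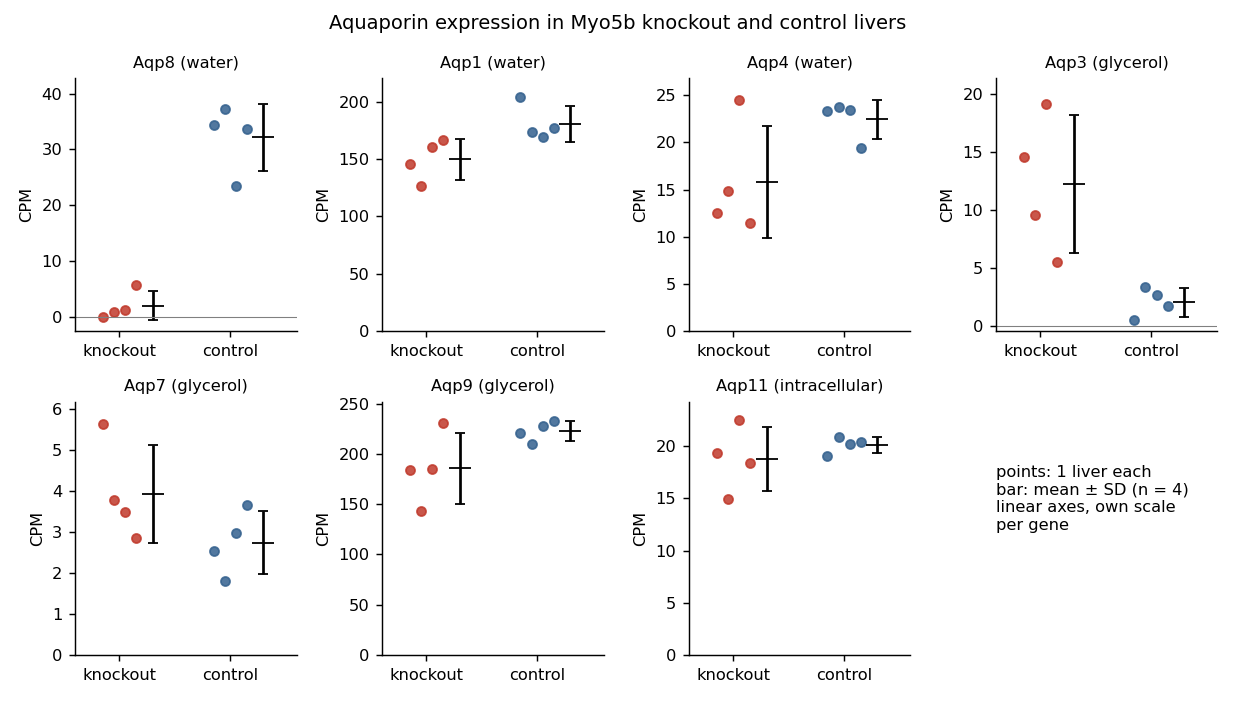
Scaled counts (CPM) of each aquaporin in each liver, with 1 panel a gene, knockout livers on the left and control livers on the right, and the mean ± SD (n = 4) beside the points. Aqp8 lies at 0 to 5.83 CPM in knockout livers against 23.5 to 37.3 CPM in controls, Aqp3 at 5.46 to 19.2 CPM against 0.455 to 3.35 CPM, and only Aqp1 among the other 5 shows groups that do not overlap.

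Aqp8 (ENSMUSG00000030762, chromosome 7, 123462291 to 123468004, plus strand) is the water channel of the hepatocyte's canalicular vesicles. It had 0, 0.959, 1.37 and 5.83 CPM in knockout livers 275, 276, 277 and 278, against 34.4, 37.3, 23.5 and 33.7 CPM in control livers 279, 280, 281 and 282. Every control liver was several times above the highest knockout liver, and knockout 278 was well above the other knockouts. Behind these levels stood 0, 15, 26 and 96 counts in the knockout livers and 529, 556, 396 and 480 counts in the controls. The count of 0 in knockout 275 allows a level of up to 0.174 CPM, the worth of 3 counts in that library, which covers counting error only. The groups averaged 2.04 ± 2.59 CPM in knockout livers and 32.2 ± 6.0 CPM in controls (SD, n = 4 each), so the mean CPM of controls was 15.8 times that of knockouts. The fitted log2 fold change was -3.99 (SE 0.84), rank 10 among the negative fold changes of all genes tested. Without knockout 278 it was -5.34, and with limma-voom, run with library quality weights, it was -5.86. The reason for the difference between edgeR and limma-voom was not tested.

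The pancreas also expresses Aqp8, and its acinar markers were low in both groups. Their summed level was 3.52 to 6.90 CPM in knockout livers and 4.09 to 8.08 CPM in controls. Markers with too few counts to test went both ways. Pnlip and Cela3b were at 0 in all knockout livers, and Ctrb1 was at 0 in all controls. Cela2a averaged 0.513 CPM in knockout livers and 0.166 CPM in controls. Of the 2 acinar markers with enough counts to test, Cela1, an elastase, was lower, in the direction of Aqp8, at 1.61 ± 0.27 CPM in knockout livers and 4.55 ± 1.14 CPM in controls (log2 fold change -1.50, SE 0.30, adjusted p = 0.00173 in edgeR's test), and Amy2a5 did not pass (log2 fold change 1.0, SE 0.55, adjusted p = 0.22). The part of acinar cells in the Aqp8 values was not tested. Among the knockouts, the liver with the most Aqp8, 278, also had the highest mean erythroid marker level. That mean was 6.46 on the log2 CPM scale against 5.32 to 5.78 in the other 3, while controls had 7.41 to 7.88. Within neither group did the order of livers by Aqp8 match that by erythroid mean. Knockout 277 had the lowest erythroid mean (5.32) but more Aqp8 (1.37 CPM) than knockout 276 (0.959 CPM, erythroid mean 5.78). These levels rest on 26 counts in 277 and 15 in 276, so their order is uncertain. Control 280 had the most Aqp8 of all livers (37.3 CPM) but the lowest erythroid mean of the controls (7.41). With the mean erythroid marker level as a covariate, the log2 fold change of Aqp8 was -0.59 (SE 1.74). The covariate did not overlap between the groups, so genotype and erythroid content cannot be told apart in this fit.

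Aqp1 (ENSMUSG00000004655, chromosome 6, 55336432 to 55348555, plus strand) is the water channel of red cells, endothelium and, in rat, cholangiocytes. It had 146, 126, 160 and 167 CPM in knockout livers 275 to 278, against 204, 173, 169 and 177 CPM in control livers 279 to 282. All knockout livers were below all controls, though knockout 278 and control 281 nearly met. Means were 150 ± 17.8 CPM in knockout livers and 181 ± 15.8 CPM in controls (SD, n = 4 each), with a log2 fold change of -0.27 (SE 0.09). Of the 11 endothelial markers tested, 9 were higher in knockout livers and 0 lower, with a median log2 fold change of 0.42 and summed levels of 1466 to 1715 CPM against 1110 to 1184 CPM in controls. Of the 9 cholangiocyte markers tested, edgeR and DESeq2 each called 0 (1 was lower and 0 higher at an unadjusted p under 0.05), with summed levels of 87.4 to 101 CPM in knockout livers and 93.7 to 108 CPM in controls. With the erythroid covariate, the log2 fold change of Aqp1 was -0.03 (SE 0.26).

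Aqp4 (ENSMUSG00000024411, chromosome 18, 15389496 to 15410982, minus strand) is best known as the water channel of astrocyte end-feet, and in rat liver it lies in the basolateral membrane of cholangiocytes. It had 12.5, 14.8, 24.5 and 11.4 CPM in knockout livers 275 to 278, against 23.3, 23.7, 23.4 and 19.4 CPM in control livers 279 to 282. Knockout 277, the knockout with Y-linked counts, was above every control, and the other 3 knockouts were below every control. Means were 15.8 ± 5.96 CPM in knockout livers and 22.4 ± 2.07 CPM in controls (SD, n = 4 each), and the log2 fold change was -0.50 (SE 0.21). It was -0.80 without knockout 277, and -0.74 between the 3 knockout and 2 control livers without Y-linked counts, a comparison added after the values were seen. Among controls, 279 and 281, which have Y-linked counts, had 23.3 and 23.4 CPM, and 280 and 282, which have almost none, had 23.7 and 19.4 CPM. The erythroid covariate moved the log2 fold change of Aqp4 to -1.73 (SE 0.51).

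Aqp3 (ENSMUSG00000028435, chromosome 4, 41092722 to 41098183, minus strand) is an aquaglyceroporin of kidney collecting duct and skin that also passes hydrogen peroxide, and in mouse it is found in macrophages. It had 14.6, 9.59, 19.2 and 5.46 CPM in knockout livers 275, 276, 277 and 278, against 0.455, 3.35, 2.61 and 1.68 CPM in control livers 279, 280, 281 and 282. Each knockout liver was above each control, and both groups were wide, with knockout 277 the highest and control 279 the lowest. The counts were 251, 150, 364 and 90 in knockout livers and 7, 50, 44 and 24 in controls. Means were 12.2 ± 5.96 CPM in knockout livers and 2.03 ± 1.25 CPM in controls (SD, n = 4 each), a mean CPM 6.02-fold higher in knockouts. The log2 fold change was 2.59 (SE 0.57), rank 32 among the positive fold changes of all genes tested.

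Keratinocytes carry Aqp3, and the stratified epithelium markers lay mostly in knockout 276, where Krt13 (31.6 CPM) and Krt4 (25.3 CPM) made up most of their sum. Trp63 of the same list averaged 0.18 CPM in knockout livers and 1.48 CPM in controls. Without knockout 276 the log2 fold change of Aqp3 was 2.68, and the part of these cells in the Aqp3 values was not otherwise tested. Between the livers without Y-linked counts it was 1.97. The Kupffer cell and macrophage markers were higher in knockout livers, with a median log2 fold change of 0.85. Among knockouts their sum was highest in 276 (1805 CPM), which had the second lowest Aqp3 (9.59 CPM). The sum was lowest in 278 (1558 CPM), where Aqp3 was lowest. The part of these cells in the Aqp3 values was not tested. With the erythroid covariate the log2 fold change of Aqp3 was -0.78 (SE 0.81), of the opposite sign. Among knockouts Aqp3 rose in the order 278, 276, 275 and 277, the reverse of their order by erythroid mean (6.46, 5.78, 5.38 and 5.32). Among controls Aqp3 rose in the order 279, 282, 281 and 280, where the erythroid means were 7.85, 7.88, 7.57 and 7.41. The part of erythroid content in the Aqp3 values was not tested apart from the covariate fit, where it cannot be told apart from genotype.

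Aqp7 (ENSMUSG00000028427, chromosome 4, 41033074 to 41048139, minus strand) is the channel by which adipocytes release glycerol. It had 5.63, 3.77, 3.48 and 2.85 CPM in knockout livers 275 to 278, against 2.53, 1.81, 2.97 and 3.65 CPM in control livers 279 to 282. The groups overlapped, with knockout 275 above all other livers. Means were 3.93 ± 1.19 CPM in knockout livers and 2.74 ± 0.77 CPM in controls (SD, n = 4 each), and the log2 fold change of 0.52 (SE 0.31) was 0.30 without knockout 275. Among adipocyte markers, Plin1 was at 0 in all knockout livers and at most 3.75 CPM in a control, and Adipoq was at most 0.128 CPM in a knockout and 1.07 CPM in a control. Their summed level was 22.7 to 33.2 CPM in knockout livers and 17.3 to 43.1 CPM in controls, nearly all of it from Fabp4 and Cidec, which other liver cells also express. Cidec, a lipid droplet protein, was higher, in the direction of Aqp7, at 8.81 ± 3.80 CPM in knockout livers and 1.75 ± 1.24 CPM in controls (log2 fold change 2.33, SE 0.44, adjusted p = 0.0029 in edgeR's test), and Fabp4 did not pass (log2 fold change -0.24, SE 0.22, adjusted p = 0.514). The part of adipocytes in the Aqp7 values was not tested.

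Aqp9 (ENSMUSG00000032204, chromosome 9, 71110659 to 71168682, minus strand) is the aquaglyceroporin of the sinusoidal membrane through which hepatocytes take up glycerol, and it also passes urea. It had 184, 143, 185 and 230 CPM in knockout livers 275 to 278, against 220, 210, 228 and 233 CPM in control livers 279 to 282. Knockouts 275, 276 and 277 were below all controls, and knockout 278 lay among the controls. Means were 185 ± 35.6 CPM in knockout livers and 223 ± 9.99 CPM in controls (SD, n = 4 each). The log2 fold change was -0.26 (SE 0.11), -0.16 without knockout 276 and 0.22 (SE 0.28) with the erythroid covariate. Mouse red cells carry Aqp9 in their membrane, as they do Aqp1.

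Aqp11 (ENSMUSG00000042797, chromosome 7, 97724006 to 97738289, minus strand) is an endoplasmic reticulum member whose loss in mice gives polycystic kidneys. It had 19.3, 15, 22.5 and 18.4 CPM in knockout livers 275 to 278, against 19.0, 20.9, 20.2 and 20.4 CPM in control livers 279 to 282. The controls lay close together inside the wider range of the knockouts. Means were 18.8 ± 3.10 CPM in knockout livers and 20.1 ± 0.80 CPM in controls (SD, n = 4 each), with a log2 fold change of -0.10 (SE 0.14). No exon of another gene overlaps an exon of any of the 7 on either strand. The spans of Aqp4 and Aqp9 are overlapped on the opposite strand by the antisense genes AC133525.2 and Gm32511. That of Aqp9 is also overlapped by the pseudogene Gm47268, again on the opposite strand.

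Across settings the members kept their directions, except with the erythroid covariate. Under the other 3 scalings, another filter or none, non-robust dispersion, DESeq2, limma-voom, a Y-linked covariate and the livers without Y-linked counts, Aqp8 ran from -5.86 to -3.92 on the log2 scale and Aqp3 from 1.97 to 2.95. Leaving out each liver in turn gave -5.34 to -3.57 for Aqp8 and 2.25 to 2.93 for Aqp3. The same omissions gave -0.33 to -0.21 for Aqp1, -0.38 to -0.16 for Aqp9, and -0.20 to -0.01 for Aqp11, which stays close to 0.

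**Figure D2:**
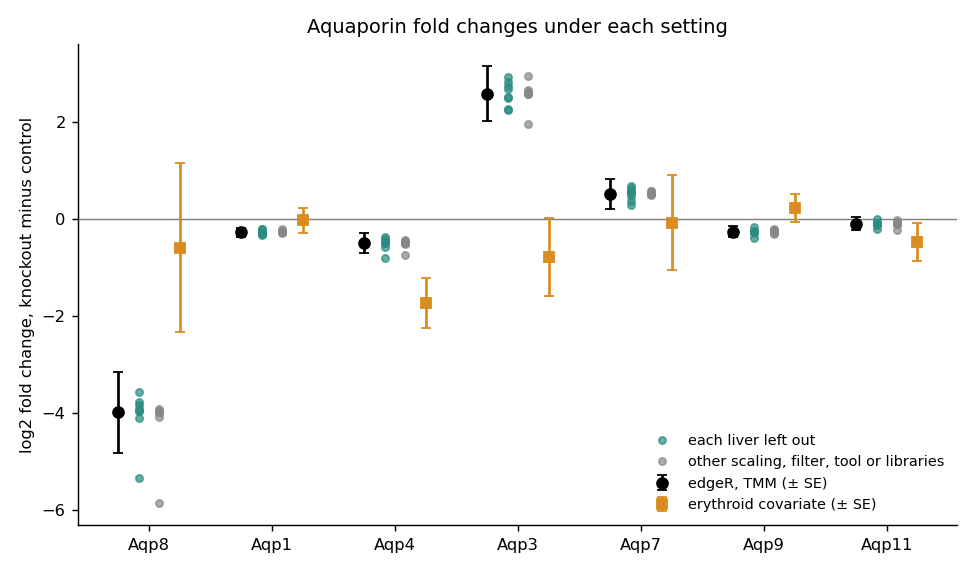
Log2 fold change (knockout minus control) of each aquaporin from edgeR with TMM scaling (black, ± SE), with each liver left out (green), under other scalings, filters, tools or library choices (grey), and with the mean erythroid marker level as a covariate (orange, ± SE). Aqp8 and Aqp3 lie far from 0 in opposite directions in every setting but the last, where Aqp8 is at -0.59 (SE 1.74) and Aqp3 at -0.78 (SE 0.81).

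Levels of different aquaporins are compared per length, as CPM divided by the kilobases of merged exons. In control livers the order was Aqp1 with 68.8 ± 6.01, Aqp9 with 53.8 ± 2.41, Aqp8 with 20.4 ± 3.80, Aqp4 with 3.60 ± 0.33, Aqp11 with 2.14 ± 0.085, Aqp3 with 1.11 ± 0.68 and Aqp7 with 0.97 ± 0.27 per kilobase (SD, n = 4). Of neighbours in that order, Aqp3 and Aqp7 alone had overlapping ranges. In knockout livers Aqp1 had 57.0 ± 6.79, Aqp9 44.8 ± 8.58, Aqp3 6.67 ± 3.26, Aqp4 2.54 ± 0.96, Aqp11 2.0 ± 0.33, Aqp7 1.39 ± 0.42 and Aqp8 1.29 ± 1.64 per kilobase (SD, n = 4). There Aqp9 and Aqp3 were the only neighbours with separate ranges, so Aqp8 ranked lowest and Aqp3 the third by mean level only. With the length of the longest transcript in place of merged exons, Aqp9 was above Aqp1 in both groups and Aqp11 above Aqp4 in knockout livers by mean level.

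The summed level of the 7 was 114, 93.8, 124 and 130 per kilobase in knockout livers 275 to 278, against 159, 149, 143 and 152 per kilobase in control livers 279 to 282. Every knockout liver was below every control. The means were 116 ± 16.1 per kilobase in knockout livers and 151 ± 7.03 per kilobase in controls (SD, n = 4 each). Aqp8 made up 1.04% of that sum in knockout livers (0 to 2.83%) and 13.5% in controls (10.4 to 15.9%). Aqp3 made up 5.83% in knockout livers (2.29 to 8.42%) and 0.749% in controls (0.156 to 1.23%). Aqp1 and Aqp9 made up most of the sum in both groups, Aqp1 49.4% in knockouts and 45.6% in controls and Aqp9 38.6% in knockouts and 35.7% in controls.

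A ratio within a liver does not depend on how libraries are scaled. The level of Aqp8 per length was 0, 1.76, 1.94 and 6.63% of that of Aqp9 in knockout livers 275 to 278, against 40.8, 46.6, 27.0 and 37.9% in control livers 279 to 282. The 2 hepatocyte channels, one canalicular and one sinusoidal, thus stood in different proportion in every knockout liver than in any control. Aqp3 was 17.9, 15.2, 23.5 and 5.38% of Aqp9 in knockout livers, against 0.467, 3.62, 2.59 and 1.64% in controls, and these ranges were also separate.

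**Figure D3:**
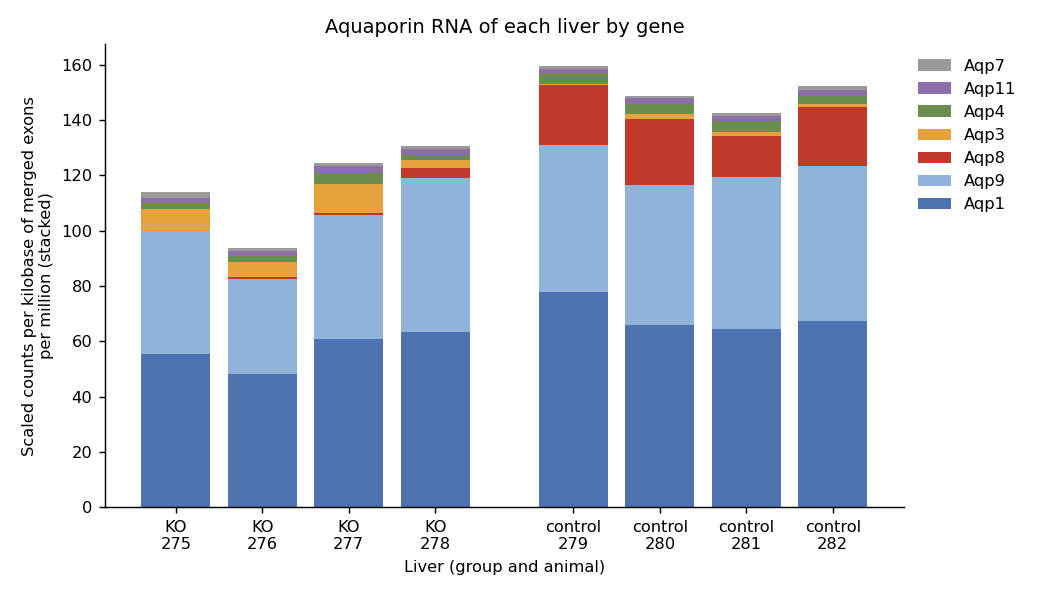
Summed aquaporin level of each liver in CPM per kilobase of merged exons, stacked by gene, with knockout livers (KO) left of control livers. The sums are 93.8 to 130 in knockout livers against 143 to 159 in controls, with the Aqp8 layer thin or absent and the Aqp3 layer thicker in knockout livers.

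The other 5 family genes in the table, Mip, Aqp2, Aqp5, Aqp6 and Aqp12, had at most 2 counts in any liver and were not tested. Aqp5 and Aqp12 had 2 counts each over all knockout livers, against 2 and 1 over all controls, and Mip, Aqp2 and Aqp6 had 0 over all knockout livers, against 5, 2 and 2 over all controls. No difference was detectable at these counts.

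Within groups the members did not move as 1 unit. The pooled SD of log2 CPM within groups was 1.65 for Aqp8, 0.98 for Aqp3, 0.40 for Aqp7, 0.36 for Aqp4, 0.20 for Aqp9, 0.18 for Aqp11 and 0.15 for Aqp1. Over the 8 livers, deviations from the group means had a Pearson r of 0.73 between Aqp1 and Aqp9, -0.73 between Aqp7 and Aqp8 and -0.37 between Aqp3 and Aqp8. These are descriptions of 8 libraries, whose depth and composition all genes share. In words, the knockout livers had the same order for Aqp1 as for Aqp9 (276, 275, 277 and 278, low to high), while the control with the most Aqp1, 279, had less Aqp9 than 281 and 282. The knockout with the most Aqp7, 275, was the one with no Aqp8 count.

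The genes whose log2 CPM tracked each member most closely over the 8 livers were named by the highest Pearson r, which for Aqp8 and Aqp3 follows the difference between groups as well as the order within them. For Aqp8 they included Apol8 (r = 0.99), Smarca4, Inmt and Fam210b (each 0.98), and for these the r of deviations from group means was 0.93 to 0.96. Apol8, an apolipoprotein L gene, averaged 3.85 CPM in knockout livers and 20.2 CPM in controls, and Inmt, an indole amine methyltransferase, 13.7 CPM in knockout livers and 77.9 CPM in controls. For Aqp3 they were Cttnbp2nl, Gpr183, Cyp4a32, Retsat and Gja4 (0.97 to 0.98; deviations 0.90 to 0.93). Cyp4a32, a fatty acid hydroxylase of the peroxisome proliferator-responsive Cyp4a family that has close paralogs, averaged 94.1 CPM in knockout livers and 25.1 CPM in controls, and Retsat, a retinol saturase, 80.0 CPM in knockout livers and 48.6 CPM in controls.

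For the members with smaller differences the nearest genes mostly followed the order of single livers. They were Creb3l1, Slc20a1, Ska1, Rfesd and Spry4 for Aqp1 (0.96 to 0.97), and Palld, Ppp1r8, Tmem186, Jup and Canx for Aqp4 (0.95 to 0.97). For Aqp9 they were Asxl1, Rhoa, Orc4, Ap2m1 and Pask (0.96 to 0.98), and for Aqp11 Ecsit, Ifitm2, Ldb2, Mr1 and Tpd52l2 (0.93 to 0.95). Aqp7, with a mean under 5 CPM, was not included. Each of these r is the highest of a search over all genes of at least 5 CPM with 8 points, and nothing is read from its size.

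Genes that handle what the aquaporins carry, or that move and regulate them, were described from lists, and these genes carry a test. All 6 lists are read beside the 9.27% of genes called higher, the 11.4% called lower and the median log2 fold change of 0.01 over all genes tested.

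Enzymes that make and use glycerol changed in both directions. Of 21 glycerol handling genes tested, 6 passed as higher in knockout livers and 7 as lower, with a median log2 fold change of -0.02. Gk, the kinase that traps glycerol entering through Aqp9, rose to 268 ± 40.5 CPM in knockout livers, against the controls' 164 ± 13.1 CPM (SD, n = 4 each; log2 fold change 0.71, SE 0.10, adjusted p = 1.34e-04 in edgeR's quasi-likelihood test). Gpd1, the cytosolic glycerol-3-phosphate dehydrogenase, fell to 154 ± 8.22 CPM, against 274 ± 33.7 CPM in controls (log2 fold change -0.83, SE 0.09, adjusted p = 8.43e-06). Lpin1, a phosphatidate phosphatase of triglyceride synthesis, was higher by 1.14 on the log2 scale (SE 0.12, adjusted p = 4.26e-06), and Slc37a4, the glucose-6-phosphate transporter of the endoplasmic reticulum, fell by 0.75 (SE 0.11, adjusted p = 1.10e-04). The mitochondrial dehydrogenase Gpd2 rose by 0.80 on that scale. Fbp1 and G6pc, which lead from glycerol to glucose, were lower, with log2 fold changes of -0.48 and -0.64.

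The genes around the bile canaliculus mostly did not pass. Of 15 bile water and electrolyte secretion genes tested, 2 were higher and 3 lower, with a median log2 fold change of -0.09. Car2, a cytosolic carbonic anhydrase that red cells also hold in quantity, had 128 ± 38.5 CPM in knockout livers and 404 ± 49.5 CPM in controls (log2 fold change -1.65, SE 0.20, adjusted p = 5.14e-04 in edgeR's test). The sodium bicarbonate cotransporter Slc4a4 rose by 0.56 (SE 0.11), and the chloride channel Clcn2 fell by 0.85 (SE 0.20). The bile salt export pump Abcb11 was lower (log2 fold change -0.32, SE 0.09, adjusted p = 0.014 in edgeR's test), and leaving out control 279 ended this call. The canalicular anion exchanger Slc4a2, which lies beside Aqp8 in rat hepatocytes and secretes bicarbonate, had 47.4 ± 1.16 CPM in knockout livers and 45.2 ± 1.19 CPM in controls (log2 fold change 0.07, SE 0.09, adjusted p = 0.628). Without knockout 275 or without control 279, 1 gene of the list was higher in place of 2.

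Ammonia and urea handling, linked to mitochondrial Aqp8 in rat hepatocytes, was the list with the largest share of lower genes among the 6. Of 14 genes tested, 10 were lower and 0 higher, with a median log2 fold change of -0.56, and 0 were higher at an unadjusted p under 0.05 in edgeR or with DESeq2. Otc, which makes citrulline in mitochondria, had 92.0 ± 14.1 CPM in knockout livers and 214 ± 18 CPM in controls (log2 fold change -1.21, SE 0.10, adjusted p = 9.68e-07 in edgeR's test). Ass1, which makes argininosuccinate, fell by 1.22 (SE 0.13), and Slc25a15, the mitochondrial ornithine carrier, fell by 0.64 (SE 0.10). Car5a, the mitochondrial carbonic anhydrase that supplies bicarbonate to the cycle, had 0.628 ± 0.603 CPM in knockout livers and 13.1 ± 5.15 CPM in controls (log2 fold change -4.36, SE 0.57, adjusted p = 6.23e-04). Arg1, which releases urea, was lower (log2 fold change -0.49, SE 0.12, adjusted p = 8.84e-03 in edgeR's test). The urea transporter Slc14a1, which red cells also carry, was lower too (log2 fold change -1.42). Asl, Nags, Glul and Rhbg did not pass.

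Hydrogen peroxide, which Aqp8, Aqp3 and Aqp11 can pass, is removed by enzymes of which several were lower. Of 17 hydrogen peroxide and endoplasmic reticulum redox genes tested, 6 were lower and 0 higher, with a median log2 fold change of -0.21, and again 0 were higher at an unadjusted p under 0.05 in edgeR or with DESeq2. Gpx1, a cytosolic and mitochondrial peroxidase, had 346 ± 44.9 CPM in knockout livers and 900 ± 125 CPM in controls (log2 fold change -1.38, SE 0.11, adjusted p = 7.93e-07 in edgeR's test). Prdx2, a peroxiredoxin abundant in red cells, fell by 1.23 (SE 0.12), and Cat, the catalase of peroxisomes and red cells, fell by 0.77 (SE 0.11). Mitochondrial Prdx3 (-0.14, SE 0.09, adjusted p = 0.307) and the endoplasmic reticulum chaperone Hspa5 (0.05, SE 0.13, adjusted p = 0.822) did not pass. The erythroid markers were lower in every knockout liver too. Their part in the values of Gpx1, Prdx2 and Cat was not tested apart from the covariate fit described after the lists.

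Of 15 aquaporin regulators tested, 3 were higher and 4 lower, with a median log2 fold change of 0.13. Pparg, the nuclear receptor that drives Aqp7 in adipocytes, had 23.9 ± 2.0 CPM in knockout livers and 13.3 ± 0.69 CPM in controls (log2 fold change 0.85, SE 0.12, adjusted p = 1.18e-04 in edgeR's test). The estrogen receptor Esr1 fell by 0.73 (SE 0.12) and the forkhead factor Foxo3 fell by 0.60 (SE 0.11). Ppara, which acts on liver Aqp9 and Aqp3 in fasted mice, was lower (log2 fold change -0.25, SE 0.08, adjusted p = 0.0283 in edgeR's test). This call was lost with 4 of the 8 livers left out in turn and under 6 other settings, the erythroid covariate among them. Foxo1 (0.16, SE 0.11, adjusted p = 0.36) and the insulin receptor Insr (-0.14, SE 0.08, adjusted p = 0.224), both of the pathway by which insulin represses Aqp7 and Aqp9 in rodents, did not pass. Without knockout 275 or without control 282, 2 genes of the list were lower in place of 4.

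Of 13 apical recycling partners of myosin Vb tested, 2 were higher and 1 lower, with a median log2 fold change of -0.06. Myo5c, a related class V myosin, was lower (log2 fold change -0.79, SE 0.19, adjusted p = 5.40e-03 in edgeR's test). Stx3, an apical syntaxin, was higher by 0.84 (SE 0.25, adjusted p = 0.0222), and Rab11fip3, a Rab11 adaptor, by 0.36 (SE 0.12, adjusted p = 0.0483). Rab11a had 40.2 ± 4.56 CPM in knockout livers and 42.8 ± 3.98 CPM in controls (log2 fold change -0.09, SE 0.11, adjusted p = 0.612), and the adaptor Rab11fip2 12.1 ± 2.51 CPM in knockout livers and 13.5 ± 1.66 CPM in controls (-0.15, SE 0.17, adjusted p = 0.584). The higher calls were 0 without knockout 275, knockout 277 or control 280, and 1 without knockout 278, control 281 or control 282. The lower calls were 2 without control 282.

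Beside all 6 lists stands the erythroid difference between the groups. With the mean erythroid marker level as a covariate, 0 of the 23 named list genes that had passed were called, with adjusted p of 0.0757 to 0.986, and 22 kept their direction. The folds split, with 9 at least as large on the log2 scale as without the covariate, 8 at under 0.5 of that size, 5 between and Foxo3 of opposite sign. Of the urea genes Otc at -1.41, Ass1 at -1.62, Slc25a15 at -1.07 and Arg1 at -1.13 lay further from 0 than without it. The urea gene Car5a did not, at -2.10 against -4.36 without the covariate, under 0.5 of the size. Slc37a4 at -0.98 and Cat at -0.89 also lay further from 0, while Gpx1 at -0.68 was under 0.5 of its size without the covariate. Car2 at -0.23, Prdx2 at -0.29 and Gk at 0.04 were among those that shrank most. Between the livers without Y-linked counts, 18 of the 23 kept their call, and Myo5c, Rab11fip3, Abcb11, Arg1 and Ppara did not. The erythroid covariate separates the groups completely, so these genes' genotype difference and erythroid content cannot be told apart in that fit.

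**Figure D4:**
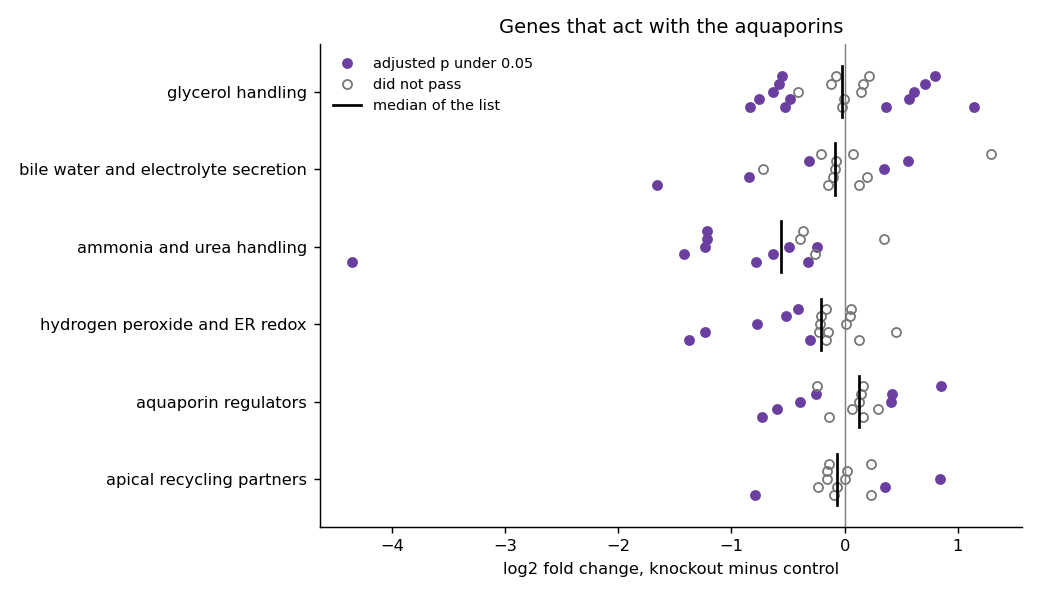
Log2 fold change (knockout minus control) of every tested gene in the 6 lists of genes that act with the aquaporins, filled where the adjusted p was under 0.05, with the median of each list as a bar. Ammonia and urea handling has a median of -0.56 with 10 of 14 genes called lower, and the medians of the other 5 lists lie between -0.21 and 0.13.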

How the data were processed

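Whole-liver RNA was taken from 8 pups, 4 a group, each library its own animal, though separate litters are not stated. The deposited values are whole-number read counts for Ensembl genes. The authors aligned reads to a build written GRMm38, read here as GRCm38, with Rsubread 2.20.0 in R 4.4.1, per the labels' protocols. The submitters' processing notes name featureCounts as the counting tool. Not given in the sources used here are the annotation, the strand setting and how multi-mapping reads were counted. Levels per length depend on the gene model, and the merged exons of Aqp11 hold a retained-intron transcript.

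Of 48440 genes, 48058 matched a GENCODE M21 symbol, whose coordinates are printed, and the 250-base upstream windows come from RefSeq (GRCm38.p6). Genes were kept by filterByExpr (minimum count 10, minimum total 15), scaled by TMM and tested in R 4.3.3 with edgeR 4.0.16 (and limma 3.58.1), robust quasi-likelihood F-test, p-values Benjamini-Hochberg adjusted over all genes tested, at 0.05. SEs were taken from each fold change and its F. CPM use TMM library sizes, and log2 CPM a prior count of 2. The test was checked on simulated counts. Figures were drawn with matplotlib 3.10.9.

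The members and the lists were chosen with earlier results of these data known. Named genes are the 7 members, Myo5b, the 3 list genes with the smallest p in each list, those of the lists that act directly with an aquaporin, and the 5 genes with the highest Pearson r to each member of at least 5 CPM, of which 1 is not reported here. Gpd2, Fbp1, G6pc, Slc14a1, single marker genes and the list genes said not to pass beyond these were named after their values were seen. Alternatives were DESeq2 1.42.0, limma-voom, upper-quartile or median-ratio scaling, library size alone, non-robust dispersion, no filter, a floor of 1 CPM in 4 libraries, erythroid and Y-linked covariates, each liver left out, and the longest transcript as length. The comparison of livers without Y-linked counts was added after seeing the data.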

Additional observations from a re-analysis of the deposited data

Results flagged for a closer look

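Among the 4 control livers, Aqp4 was lowest in control 282, at 19.35 CPM, apart from 23.3 to 23.7 CPM in the other 3. Its gap to the nearest control was 0.904 of the whole range of the controls, above the 95% critical value of Dixon's test for 4 samples. Of 14 groups of livers examined, 2 for each aquaporin, this was the only one so marked, and chance marks about 1 group in 20.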

How the results depend on the processing

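With the erythroid covariate, 23 genes were called higher and 18 lower in knockout livers. The list counts were then 1 higher and 0 lower for glycerol handling, 0 and 0 for bile secretion, 0 and 1 for ammonia and urea, 1 and 0 for hydrogen peroxide and redox, 0 and 1 for regulators, and 0 and 0 for apical recycling. The log2 fold changes of Aqp3 (-0.78), Aqp7 (-0.077), Aqp9 (0.22) and Foxo3 (0.058) turned sign there. The cause was not tested. Between the 3 knockout and 2 control livers without Y-linked counts, a comparison with fewer samples, 704 genes were higher and 1020 lower. The list counts there were 3 higher and 3 lower for glycerol handling, 1 higher for bile secretion, 5 lower for ammonia and urea, 2 lower for regulators, and 1 higher and 0 lower for apical recycling. Regulators had 2 lower genes under upper-quartile scaling, library size alone and the Y-linked covariate too, and apical recycling had 1 higher gene with non-robust dispersion and with limma-voom. Leaving out each liver in turn gave 1 to 3 higher bile secretion genes, 2 to 4 lower regulators, and 0 to 2 higher and 1 to 2 lower apical recycling genes. No other count of calls moved by more than 1.5 times in the settings run. The other scalings moved the median log2 fold change of all genes by at most 0.07. No paired analysis was possible because the litter of each pup is not given, so any litter shared between the groups was not used. The levels of Aqp8 in knockout livers, Aqp7 in both groups, and Aqp3 in controls and in knockout 278 rest on fewer than 100 counts a liver. This limits their precision, and knockout 278 is the knockout whose Aqp3 lay nearest the controls.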
